A study of Mus musculus with 2 samples.

Results

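The Egr and Nr4a transcription factor genes, their corepressor genes Nab1 and Nab2, and Myc were followed in autoreactive and non-autoreactive immature B cells of mouse bone marrow. The 9 genes, of 27671 gene or transcript names on the arrays, were fixed by name, and every gene probe on the arrays that carried one of these names was kept. This gave 13 probes of 41174, of which 11, from 8 genes, were bright enough to be tested: on each array, at least 1 of their channels was well above background. A probe for Egr2 and a probe for Myc were each printed 10 times, so that the genes occupied 31 spots per array.

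Gene expression had been measured on 2 Agilent arrays of 2 colours. Each array set RNA of autoreactive cells (Cy5) against RNA of non-autoreactive cells (Cy3) from pooled, sorted marrow of untreated mice, B220 positive and negative for CD23, CD43 and IgD. The autoreactive cells came from BALB.B mice of genotype 3-83Igi,Rag1-/-,H-2b and the non-autoreactive cells from BALB/c mice of genotype 3-83Igi,H-2d, so both groups carried the inserted 3-83 immunoglobulin genes. The 3-83 receptor is known to bind MHC class I of the H-2b but not of the H-2d haplotype. The Rag1 disruption is listed for the autoreactive mice alone. Age and the number of pooled mice are not given in the sources used here, and only the autoreactive pools are numbered in the sample labels. The series design counts 2 biological replicates in each group, which makes the non-autoreactive cells 2 pools, though no sample label tells those pools apart. Strain, H-2 haplotype, Rag1 and dye therefore followed the groups and cannot be told apart from autoreactivity.

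EGR proteins are zinc-finger factors, and NR4A proteins are orphan nuclear receptors. Both families are immediate early genes: signals from the B cell receptor raise their transcription within minutes, without new protein synthesis, through serum response factor with its ETS partners, through CREB and through MEF2 factors. NAB1 and NAB2 bind EGR proteins and repress their activity, and NAB2 is itself induced by EGR factors, which closes a feedback loop. MYC pairs with MAX at E-box sequences and drives cell growth, and is likewise induced by antigen.

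Promoter stretches are printed for 3 members, Egr2, which rose on both arrays, and Nr4a1 and Nr4a2, which differed between the arrays, to show letters that match these response elements. They were read from RefSeq windows on GRCm38.p6. Used here were 10 annotated starts of 6 of the 9 genes, 5 of them of Egr2. Both strands of the 250 bases before each start were searched for the EGR sites GCGGGGGCG and GCGTGGGCG, the cyclic AMP response element TGACGTCA and its shorter form TGACG, the CArG box of serum response factor, the ETS site CCGGAA, the NR4A site AAAGGTCA, the E-box CACGTG and the GC box GGGCGG. Overlapping matches were counted, and a full TGACGTCA would also count as TGACG. Capitals mark whole matches other than GC boxes. The Egr2 stretch is chr10:67537793-67537822 (plus strand), 76 to 47 bases before a start, with a CArG box and a TGACG. The Nr4a1 stretch is chr15:101266771-101266800 (plus strand), 75 to 46 bases before the start, with a TGACG and an EGR site, both read on the minus strand. The Nr4a2 stretch is chr2:57124107-57124206 (minus strand), 203 to 104 bases before the start, with all 4 of its TGACG matches.
Egr2: cagtCCATATATGGgcagcgaCGTCAcggg
Nr4a1: cgtgtgCGTCAgtggCGCCCCCGCccctct
Nr4a2: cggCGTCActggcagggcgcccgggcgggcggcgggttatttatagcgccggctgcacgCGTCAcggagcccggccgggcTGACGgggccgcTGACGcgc

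The windows of Nr4a1, Nr4a2 and Nr4a3 each held 4 TGACG matches, a motif found in 17.8% of the 32851 windows of this length. A CArG box, present in 1.47% of all windows, lay in 4 of the 5 Egr2 windows. Of those, 3 overlap one another and also held 2 TGACG matches. The Nab1 window, with a GC content of 80.8%, held 1 GCGGGGGCG and 2 GCGTGGGCG matches. At least 1 match of each lay in 2.57% and 0.536% of all windows. Of these motifs the Nab2 window held a single GC box, which 32.7% of windows share. A match describes letters and was not measured as a bound site.

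Egr2, Egr3 and Nab2 were higher in autoreactive cells on both arrays, by 1.87 to 2.38-fold. Nr4a1 and Myc were higher on array 1 and lower on array 2, and Nr4a2 was lower on array 2 alone. Egr1 and the brighter Nab1 probe lay near 0, and Nr4a3 was not well above background in any channel. Of the 8 tested genes, 3 passed limma's test at an adjusted p under 0.05, all of them higher, and none was lower. Among all tested probes 3.18% were called higher and 2.18% lower, and among genes, each taken by its brightest tested probe, 3.52% and 2.62%. In bulk RNA, more cells with a transcript and more transcript per cell cannot be told apart.

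**Figure D1:**
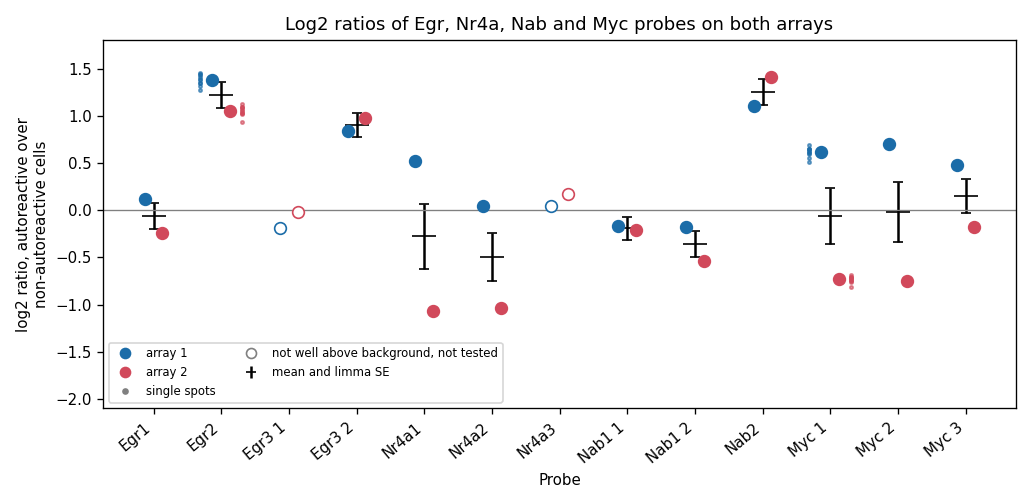
Log2 ratio of autoreactive over non-autoreactive cells (y axis) for each probe of the 9 genes (x axis) on array 1 and array 2, with the mean and its limma standard error. Egr2, Egr3 (its brighter probe) and Nab2 lie above 0 on both arrays, while the points of Nr4a1 and Myc fall on opposite sides of 0; small points are the 10 single spots of Egr2 and of Myc.

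Egr2 encodes an EGR factor tied to lymphocyte anergy and to survival of selected cells. Its level, as normalized log2 intensity, was 10.70 and 11.16 in the autoreactive channel of arrays 1 and 2, and 9.32 and 10.11 in the non-autoreactive channel. Both autoreactive values lay above both non-autoreactive values. Its log2 ratios on arrays 1 and 2 were 1.38 and 1.05, with a mean of 1.21 ± 0.14 (SE, n = 2 arrays; limma adjusted p = 0.00936; 95% interval 0.88 to 1.55). Centring on the median of all probes in place of loess put the mean at 1.79, above that interval, where the median gene stood at 0.58. The 10 Egr2 spots spanned 1.27 to 1.46 on array 1 (median 1.39) and 0.94 to 1.13 on array 2 (median 1.06). Every spot of the gene was above 0, and the arrays' ranges did not overlap, so the difference between arrays exceeded the spread within them. Spots of an array share its RNA and are not replicates.

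Egr3 encodes the relative that acts with EGR2 in lymphocytes. Its brighter probe gave log2 levels of 7.96 and 8.64 in autoreactive cells and 7.13 and 7.67 in non-autoreactive cells, again with no overlap. Log2 ratios of 0.83 and 0.97 followed for arrays 1 and 2 (mean 0.90 ± 0.12, SE, n = 2 arrays; limma adjusted p = 0.0161; 95% interval 0.60 to 1.21). The mean depended on the processing and left that interval in a pair of settings, at 1.39 with the deposited ratios and 0.58 with centring on the median of tested probes. This probe was dim in Cy3, with mean spot intensities of 79.1 and 134 over local backgrounds of 38 and 34. The other Egr3 probe, 3152 bases away in the coordinates of the files (which name no build), was not well above background in any channel: its Cy5 intensities were 74.6 and 76.8 over backgrounds of 52.5 and 53. The Egr3 result therefore rests on a single probe, which was given its gene by symbol and not by RefSeq accession.

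Nab2, the EGR corepressor gene, had log2 levels of 8.83 and 9.05 in autoreactive cells and 7.73 and 7.64 in non-autoreactive cells. The groups were more than 1 unit apart on each array. Log2 ratios were 1.10 and 1.41 (mean 1.25 ± 0.14, SE, n = 2 arrays; limma adjusted p = 0.00871; 95% interval 0.92 to 1.59). Mean Cy5 intensities were 657 and 690. Mean Cy3 intensities were dim, at 113 and 132 over local backgrounds of 30 and 36. The gene was read by 1 probe, with 1 spot per array. With the deposited ratios its mean was 1.71, above that interval. The intervals of Nab2 and Egr2 overlap widely, and each overlaps that of Egr3 in part. No test of a difference between the genes was run.

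The 3 calls held under each alternative with the channels paired by array. Among these, centring on the median of all probes called 65.7% of all genes higher, and centring on that of tested probes 18.5%. With the former, Egr3 stood 0.53 above the median gene, Nab2 0.98 and Egr2 1.21. When the 4 channels were fitted without pairing by array, Egr2 (adjusted p = 0.165) and Egr3 (adjusted p = 0.267) no longer passed, and Nab2 still did (adjusted p = 0.0384). Egr2 levels were higher on array 2 in both channels, by 0.46 in autoreactive and 0.79 in non-autoreactive cells, a shift that the paired ratio removes.

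Nab1, the gene of the other corepressor, lay apart from Nab2. Its brighter probe gave log2 ratios of -0.17 and -0.21 (mean -0.19 ± 0.12, SE, n = 2 arrays; limma adjusted p = 0.387), and its second probe gave -0.18 and -0.53 (mean -0.36 ± 0.14; adjusted p = 0.205). The 95% interval of the second probe, -0.70 to -0.013, is not adjusted for the number of probes and lies below 0. That of the brighter probe, -0.49 to 0.10, includes 0, and both lie below the interval of Nab2. With both arrays centred on the median of all probes in place of loess, the brighter Nab1 probe was 0.50 (adjusted p = 0.0124), where the median gene also stood at 0.58 and Nab2 at 1.56.

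Egr1, the founding member of the EGR family and a usual marker of recent receptor signalling, was bright in every channel. Its log2 levels were 12.84 and 13.03 in autoreactive cells and 12.72 and 13.28 in non-autoreactive cells, so the groups overlapped. Its log2 ratio moved from 0.12 on array 1 to -0.25 on the other (mean -0.062 ± 0.14, SE, n = 2 arrays; limma adjusted p = 0.824). With loess, the 95% interval of -0.41 to 0.28 lay below the means of Egr2, Egr3 and Nab2. Centring on the median of tested probes gave 0.25 ± 0.14 (SE) for Egr1 and 0.58 ± 0.14 for Egr3. The sign of the Egr1 mean depended on the scaling: centring on the median of all probes gave 0.79 (adjusted p = 0.0022), which is 0.20 above the median gene of that setting.

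**Figure D2:**
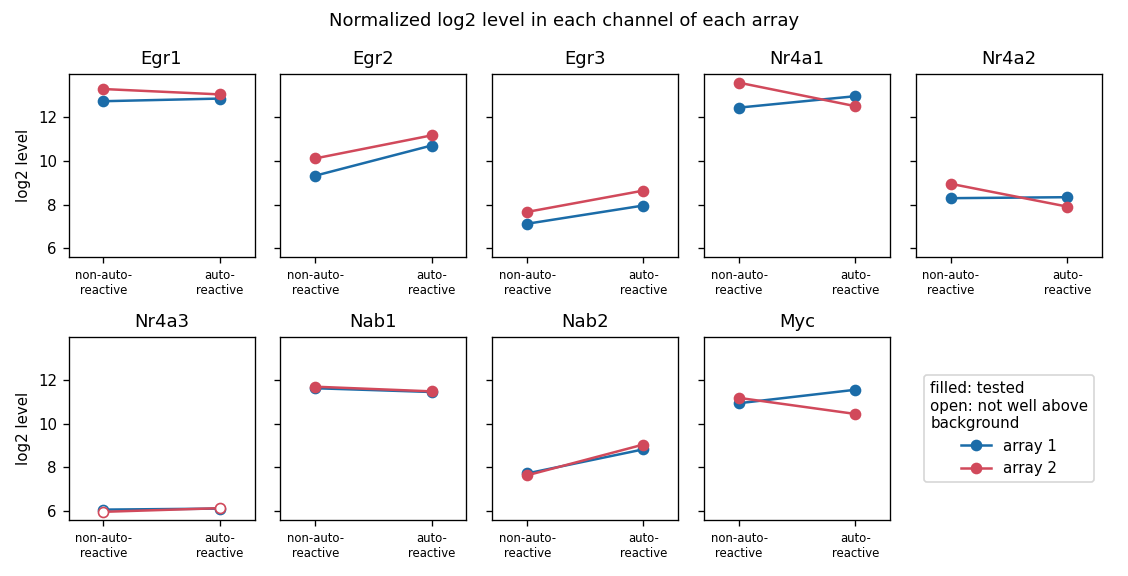
Normalized log2 level (y axis) of each gene's brightest tested probe, or its only probe, in the non-autoreactive and autoreactive channels (x axis), with a line joining the channels of an array. The lines of Egr2, Egr3 and Nab2 rise on both arrays, those of Nr4a1 and Myc cross, and Nr4a3 (open) sits at the bottom of the scale; heights are not compared between genes.

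Nr4a1 encodes NUR77, an orphan receptor widely used as a reporter of antigen receptor signalling. Its log2 levels were 12.95 and 12.50 in autoreactive cells and 12.43 and 13.57 in non-autoreactive cells. The highest and the lowest value both came from the non-autoreactive channel, on array 2 and array 1. Array 1 gave a log2 ratio of 0.52 and array 2 gave -1.07 (mean -0.28 ± 0.34, SE, n = 2 arrays; limma adjusted p = 0.662), and the 95% interval of -1.12 to 0.57 includes changes of more than 2-fold downward. Ratios as far apart as these, by 1.59, were found in 0.270% of tested probes, against a median distance of 0.19. From array 1 to array 2 the non-autoreactive level was higher by 1.14 and the autoreactive level was lower, with a change of -0.46.

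Nr4a2, the gene of the related receptor NURR1, had log2 levels of 8.34 and 7.91 in autoreactive cells and 8.30 and 8.95 in non-autoreactive cells. Array 1 showed almost no difference, with a log2 ratio of 0.045, and array 2 gave -1.04 (mean -0.50 ± 0.25, SE, n = 2 arrays; limma adjusted p = 0.293). The ratios differed by 1.08, a distance reached by 0.991% of tested probes. Nr4a3, the gene of NOR1, was seen by 1 probe, with Cy5 intensities of 61.8 and 65.1 over backgrounds of 50 and 54.5 and Cy3 intensities of 38.0 and 39.1 over 33 and 37. No level was measured for it.

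Myc was measured by 3 probes within 591 bases. Its brightest probe had log2 levels of 11.55 and 10.44 in autoreactive cells and 10.93 and 11.18 in non-autoreactive cells, so here the autoreactive channel held both the highest and the lowest value. Array 1 gave a log2 ratio of 0.61 and array 2 one of -0.73 (mean -0.060 ± 0.30, SE, n = 2 arrays; limma adjusted p = 0.924; 95% interval -0.79 to 0.67). The other probes split the same way, with 0.70 and -0.75 for one and 0.48 and -0.18 for the dimmer other. The 10 spots of the brightest probe spanned 0.51 to 0.69 on array 1 and -0.82 to -0.68 on array 2. Spot noise within an array was thus far smaller than the distance of 1.35 between arrays, which 0.478% of tested probes reached.

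The distance between arrays was positive for these genes in each setting. Over the settings that kept the arrays separate, it was 1.45 to 1.61 for Nr4a1, 1.08 to 1.28 for Nr4a2 and 1.35 to 1.38 for the brightest Myc probe. For the dimmest Myc probe it went from 0.66 to 1.00 with the deposited ratios. The sign of the mean did depend on the scaling: centred on the median of all probes, Nr4a1 was 0.56 and Myc 0.58, both close to the median gene of that setting (0.58). With 2 arrays, neither array can be taken as the exception.

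**Figure D3:**
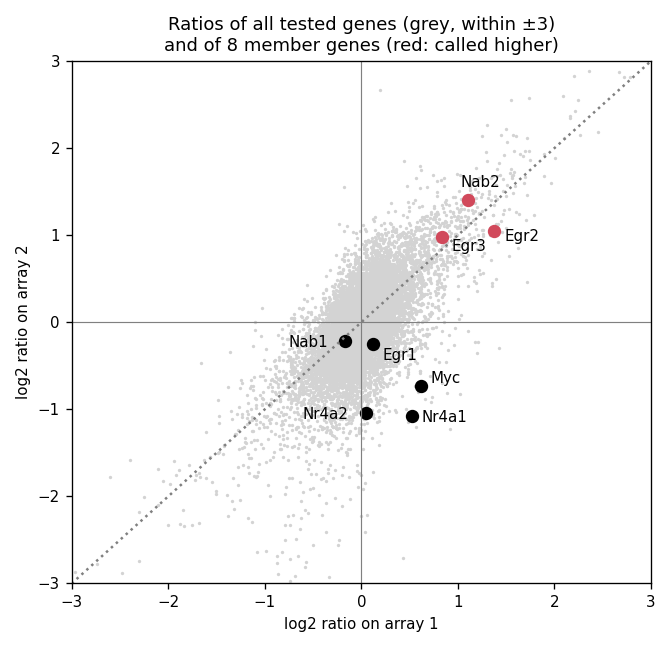
Log2 ratio on array 1 (x axis) against array 2 (y axis) for all tested genes within 3 units of 0 (grey) and for the 8 tested member genes (red where called higher, black otherwise), with the line of equal ratios dotted. Egr2, Egr3 and Nab2 lie near the line, whereas Myc, Nr4a1 and Nr4a2 lie far below it.

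Across all tested genes the arrays correlated at r = 0.711, and the SD of the ratios was 0.357 on array 1 and 0.500 on array 2. Of the 11 tested member probes, 6 had opposite signs on the arrays, against 29.2% of all tested probes. The 6 were the 3 Myc probes, which measure the same gene, and those of Egr1, Nr4a1 and Nr4a2. Egr1 and Nr4a2 lay near 0 on array 1, at 0.12 and 0.045. As a check of the labels, H2-Ea, an MHC class II gene that is known to be inactive in mice of the H-2b haplotype, was lower in autoreactive cells by log2 ratios of -5.22 and -5.26. All 12 B lineage markers were well above background in every channel. Of these, 3 were called higher and 3 lower, beside 3.52% and 2.62% of all genes. Blk (0.69), Fcrla (0.96) and Vpreb3 (0.85) were higher, and Ms4a1, which encodes CD20 (-4.02 and -3.21 on arrays 1 and 2; mean -3.61), Cr2 (-1.09) and Pax5 (-1.05) were lower. Of 6 plasma cell markers tested, Sdc1 (1.94) and Irf4 (0.89) were higher and Jchain (-1.65) and Xbp1 (-0.80) lower. These 10 genes, like Egr2, Egr3 and Nab2, had the same sign on both arrays, and the part of these markers in those results was not tested.

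Markers of other marrow cells were detected too. Except for erythroid markers, their values also differed between the arrays, and they stand here beside the members that did so. All 9 plasmacytoid dendritic cell markers were tested. The arrays' median log2 ratios were -0.73 and -2.64, and 1 gene was called lower, beside 2.62% of all genes. Their summed linear level was 15261 and 9830 in autoreactive cells and 24606 and 33020 in non-autoreactive cells. The 16 myeloid markers tested had medians of 0.058 and -0.88, the 10 natural killer markers -0.041 and -1.50, and 8 T cell markers of 12 -0.12 and -0.70. Of these, 1 myeloid and 1 T cell marker were called lower, and no natural killer marker was. Erythroid markers had similar medians on both arrays, -0.52 and -0.49, and 2 of 11 tested were called lower. Nr4a1, Nr4a2 and Myc thus had their lower ratio on array 2, where dendritic, myeloid, natural killer and T cell markers had their lower median. The part of these cells in the result was not tested.

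Upstream of the EGR and NR4A genes, 18 factors of 20 listed were tested. Of these, 2 were higher and 1 lower, beside 3.52% and 2.62% of all genes. The median log2 ratio was -0.022, against -0.0018 over all genes. Centring on the median of tested probes gave 4 higher and none lower, beside 18.5% higher and 16.6% lower of all genes. Centring on that of all probes gave 15 higher, beside 65.7% of all genes. Both genes that rose encode class IIa histone deacetylases, which bind MEF2 factors and hold their target genes silent. The other tested genes of that class, Hdac4 (0.0018, adjusted p = 0.996) and Hdac7 (-0.20, adjusted p = 0.432), did not pass. Hdac9 had ratios of 1.03 and 1.41 (mean 1.22 ± 0.14, SE, n = 2 arrays; limma adjusted p = 0.00989), and of its other probes 1 was also called (0.89) and 1 was not (0.78). Hdac5 had 0.66 and 0.86 (mean 0.76 ± 0.13; limma adjusted p = 0.0281), a call lost with the deposited ratios (adjusted p = 0.0942) and without pairing (0.153). Crtc2, a CREB coactivator gene, was lower (-0.62 ± 0.12; limma adjusted p = 0.0440), a call lost in 6 of the alternatives, and its value was 0.33 with centring on all probes. Srf, whose product binds the CArG box, had a log2 ratio of 0.079 (adjusted p = 0.748), and Creb1, whose product binds TGACG, -0.11 (adjusted p = 0.616). Both were chosen for mention after their values were seen.

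Relatives and binding partners of EGR and NR4A proteins, including the NuRD subunits that NAB proteins recruit and the RXR partners of NR4A receptors, held no call among 14 tested (median -0.21). Among all genes 3.52% were called higher and 2.62% lower. Centring on the median of tested probes gave 2 higher and 1 lower of the 14, beside 18.5% and 16.6% of all genes. Centring on that of all probes gave 10 higher, beside 65.7% of all genes. The largest shifts were those of the corepressor gene Rcor1 (-0.91 ± 0.23, SE, n = 2 arrays; limma adjusted p = 0.087; its other probes gave -0.43 and -0.11) and of the coactivator gene Ep300 (-0.42 ± 0.13; adjusted p = 0.140; other probe 0.077).

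Genes known as EGR or NR4A targets in lymphocytes had 2 of 24 tested members higher and none lower, with a median of -0.18. Among all genes 3.52% were called higher and 2.62% lower. Centred on the median of tested probes, 4 of the 24 were called higher and 6 lower, beside 18.5% and 16.6% of all genes. Centred on that of all probes, 15 were higher and 1 lower, beside 65.7% and 2.50% of all genes. Socs1, an inhibitor of cytokine signalling, had log2 ratios of 1.13 and 1.44 (mean 1.28 ± 0.14, SE, n = 2 arrays; limma adjusted p = 0.00822; 0.108 without pairing). Irf4, a transcription factor gene of B cell activation, had 1.23 and 0.56 (mean 0.89 ± 0.18; limma adjusted p = 0.0488), a call lost in 5 of the alternatives, at adjusted p of 0.0518 to 0.133. The remaining 22 did not pass, among them Id3, an inhibitor of E proteins that EGR factors induce (-0.29, adjusted p = 0.227), and Cblb, a ubiquitin ligase gene of anergy (-0.47, adjusted p = 0.116). These last genes were chosen after their values were seen.

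The MAX network held no call among 13 tested genes, beside 3.52% higher and 2.62% lower of all genes. Centred on the median of tested probes, it held 5 higher and 2 lower, beside 18.5% and 16.6% of all genes. Centred on that of all probes, it held 9 higher, beside 65.7% of all genes. The largest shifts were those of Mycl, a Myc relative (-0.68 ± 0.28, SE, n = 2 arrays; limma adjusted p = 0.217), and Mnt, a MAX partner that opposes MYC (-0.61 ± 0.19; adjusted p = 0.137). Both followed the array, with Mycl at -0.059 on array 1 and -1.30 on array 2.

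None of the 34 MYC target genes tested passed the test, beside 3.52% higher and 2.62% lower of all genes. Their ratios followed the array as those of Myc did. Medians were 0.30 and -0.20 on arrays 1 and 2. On array 1, 31 lay above 0, and on array 2, 10 did. In all, 21 were above 0 on array 1 and below 0 on array 2, where 15.7% of all tested genes were, and 32 had the higher ratio on array 1, where 52.1% of all tested genes did. The nucleolar gene Npm1 had 0.84 and 0.31 (limma adjusted p = 0.108) and the glycolysis gene Ldha 0.78 and 0.31 (adjusted p = 0.111), while another Ldha probe gave 0.077 and -0.56. The count of calls depended on the scaling: centred on the median of all probes, 32 of the 34 were called higher, beside 65.7% of all genes, and centred on that of tested probes 15 were and 1 was lower, beside 18.5% higher and 16.6% lower of all genes.

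**Figure D4:**
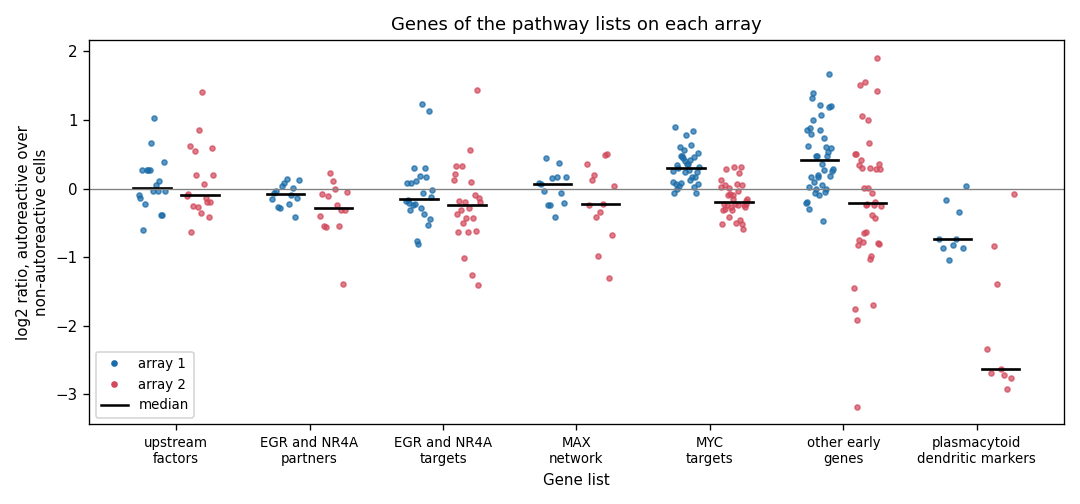
Log2 ratio (y axis) of each tested gene in 6 pathway lists and in the plasmacytoid dendritic cell markers (x axis) on array 1 and array 2, with the median as a line. MYC targets have medians of 0.30 and -0.20 on arrays 1 and 2, other early genes 0.41 and -0.21, and the dendritic markers -0.73 and -2.64.

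Other genes that antigen or the handling of cells induces early numbered 40 tested. Beside 3.52% higher and 2.62% lower of all genes, 6 of them were higher and none lower. These were Rgs2, which encodes a regulator of G protein signalling (1.79 ± 0.13, SE, n = 2 arrays; limma adjusted p = 0.00291; another probe 0.52, adjusted p = 0.131), Dusp2 and Dusp6, which encode phosphatases of MAP kinases, Spred1, whose product restrains Ras signalling, and Junb and Jund of the AP-1 family. With the deposited ratios, or without pairing, 3 of the list were called higher, Rgs2, Dusp2 and Spred1; Dusp6 was not among them (adjusted p = 0.0520 and 0.0608). Centred on the median of tested probes, 21 were called higher and 4 lower, beside 18.5% and 16.6% of all genes. Centred on that of all probes, 28 were higher, beside 65.7% of all genes. Of the other Spred1 probes, 1 was called (0.75) and 1 was not (0.53). For the whole list, medians were 0.41 and -0.21 on arrays 1 and 2. Of the 40 genes, 33 had the higher ratio on array 1, beside 52.1% of all tested genes. Signs were opposite, up then down, for 13 genes, beside 15.7% of all tested genes. Cd69, an activation antigen gene, had 0.89 and -0.82, Tnfaip3, which restrains NF-kB, 0.59 and -0.80, and Klf10 0.35 and -1.03. These last genes, and Junb and Jund, were chosen after their values were seen. The list held genes on both sides: Dusp6 and Junb kept to the pattern of Egr2, and Cd69, Tnfaip3 and Klf10 to that of Nr4a1 and Myc.

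The genes with the nearest pair of ratios were found among 11928 named genes, by the distance between their ratios on both arrays. Egr2 lay nearest to Dusp6 (1.39 and 1.06, a distance of 0.018), then Shcbp1l and Rplp1. Egr3 lay nearest to Nt5el, Gabarapl1 and Srgn, at distances of 0.0099 to 0.038. Nab2 lay nearest to Ypel1 (1.07 and 1.40), Tgfb3 and Socs1 (0.042). With 2 values per gene, such nearness describes size and array balance only.

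**Figure D5:**
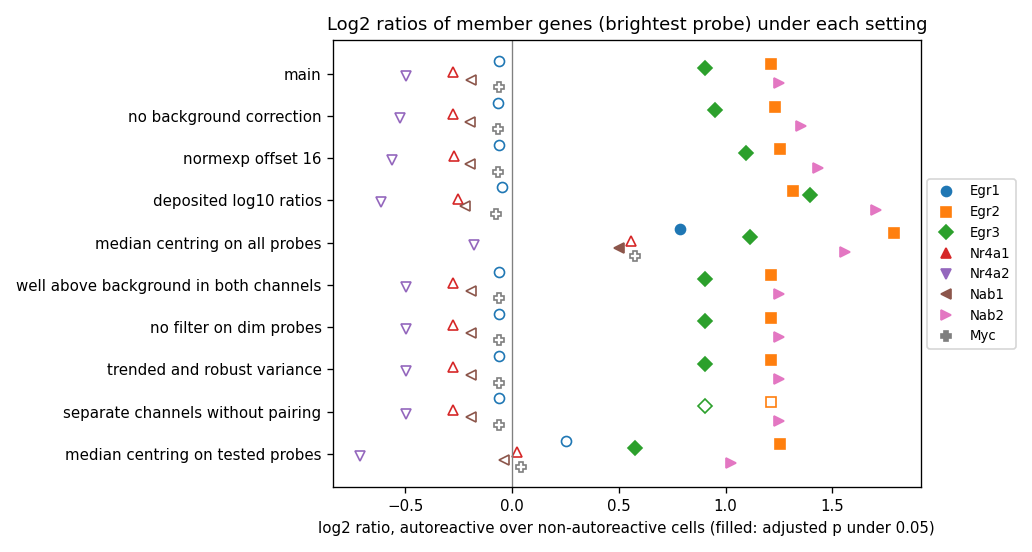
Mean log2 ratio (x axis) of the brightest probe of each tested member gene under each processing setting (y axis), filled where the adjusted p was under 0.05. Egr2, Egr3 and Nab2 stay above 0.5 in all settings, and the fit of separate channels leaves Egr2 and Egr3 open; Egr1 and Nab1 are filled only with centring on the median of all probes.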

How the data were processed

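For each channel, the authors deposited the mean intensity of every spot and the median intensity of its surroundings; per the file headers, these came from Feature Extraction 9.5.1.1. The scanner program's deposited log10 ratios served as an alternative. Backgrounds were corrected with normexp (offset 50) and arrays normalized by loess (limma 3.58.1, R 4.3.3), control and outlier spots were left out, and spots of a probe were averaged. A probe was tested where, on each array, at least 1 channel was well above background (22613 probes), with limma (lmFit, eBayes) of the log2 ratio against 0, two-sided, and p-values were adjusted by Benjamini-Hochberg over all of them. The moderated test had 1 residual and 5.10 prior degrees of freedom, and the number of arrays limits the precision. The p-values rest on a spread between these arrays that is drawn largely from all tested probes, and only in part from the probe itself. Levels are channel values after loess and Aquantile. A gene was taken by its brightest tested probe (15105 genes). Per channel, 54.1% to 57.4% of spots passed the scanner program's background test, and no gene spot was saturated. Probes were named through RefSeq accessions, then symbols. Named genes were all member probes, the called genes of each list (at most 4 by size, or the 2 largest shifts where none was called) and the 3 nearest genes of each called member. The members and lists were chosen with earlier results of these data known, so no list was tested. Alternatives changed the background correction, centring, filter, variance, pairing of channels and summary of probes. Promoters of Egr1, Egr3 and Myc were not used here.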

Additional observations from a re-analysis of the deposited data

How the results depend on the processing

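Egr2 kept a log2 ratio of 1.05 to 1.79, Egr3 of 0.58 to 1.39 and Nab2 of 1.03 to 1.71 over all settings, single arrays included. Single arrays, which allow no test, gave -0.25 and 0.12 for Egr1, -1.07 and 0.52 for Nr4a1, -1.04 and 0.045 for Nr4a2, -0.21 and -0.17 for Nab1, and -0.73 and 0.61 for Myc. Fitting channels without pairing by array left Egr2 at 1.21 (limma adjusted p = 0.165) and Egr3 at 0.90 (0.267), so 1 member probe was called higher in place of 3, and 4 listed pathway genes in place of 10. Among all genes 0.702% were then called higher in place of 3.52%. Centring on the median of all probes, which put the median gene at 0.58, turned Egr1 to 0.79, Nr4a1 to 0.56, Nab1 to 0.50 and 0.21 and Myc to 0.58 and 0.57, with 5 member probes and 109 pathway genes called higher. In that setting 65.7% of all genes were called higher. Centring on tested probes, added after seeing the data, turned Egr1 to 0.25, Nr4a1 to 0.023 and the Myc probes to 0.042, 0.033 and -0.15, with 51 pathway genes higher and 14 lower. Beside these, 18.5% of all genes were called higher and 16.6% lower. The mean over probes turned Myc to 0.022. Deposited ratios gave 5 pathway genes higher, beside 1.99% of all genes. Against 1 pathway gene lower, 0 were called with offset 16, deposited ratios, no filter or separate channels, and 3 with a trended, robust variance. Among all genes, 0.470% to 2.87% were called lower in these settings, against 2.62%. Counts over all genes went from 531 higher and 396 lower to 106 and 71 without pairing, 300 and 311 with deposited ratios, 9922 and 377 with centring on all probes and 2790 and 2506 with centring on tested probes. The cause was not tested. A slide or scan block was not run, since both arrays share 1 scan. No paired analysis was possible because the labels number the autoreactive pools only, beyond the pairing of channels on an array.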
